A study of Danio rerio with 28 samples.

Results

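The genes apoeb and fabp3 encode carriers of lipids, one secreted and one inside cells. They are 2 of the 1017 genes listed in a table of single zebrafish cells sorted as germ cells. They were chosen by their own plate means and shares of detecting cells over stages and genotypes, and by whether those cells hold germ cell transcripts. Those values are therefore given as a description with no test, and tests are kept for measures the choice did not use directly.

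Apolipoprotein E coats lipoprotein particles and hands their cholesterol and fat to cells through receptors of the LDL receptor family. In the zebrafish embryo apoeb is known from the yolk syncytial layer, which exports yolk lipid, and from epidermis and brain macrophages. Fabp3 belongs to the fatty acid-binding proteins, small cytosolic proteins that carry long-chain fatty acids between membranes and enzymes, and in mammals it is the form of heart and skeletal muscle.

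Single cells were sorted into plates and measured by CEL-seq, a method that reads the ends of messenger RNAs and gives each well a barcode. The study compares embryos of mz tdrd6a-/- mothers, which lack the germ plasm protein Tdrd6a, with embryos of wild-type mothers. The design text names a germ cell reporter transgene, kop::egfp-f-nos1-3′UTR, after the wild-type mothers, and does not say plainly whether the mutant line carried it. The tdrd6a gene itself was not analysed here.

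Wild-type and mutant cells were taken at 3.5, 8 and 24 hours post fertilization (hpf), with 5, 4 and 5 plates in wild type and 5, 4 and 3 in the mutant. These 26 plates held 1034 of the 1203 cells. A wild-type plate at 2 weeks post fertilization (wpf), a wild-type plate of both 8 and 24 hpf, and 48 barcodes of mutant plate 1 at 8 hpf that the labels describe as heterozygous entered no comparison. A value is called transcripts here, namely the deposited number less the 0.1 that every entry carries. Plates summed to between 1027 and 32018 transcripts over the listed genes, and cells to between 156 and 855, with a median of 424. No label says that plates came from separate clutches. A p-value here therefore speaks only of plate-to-plate spread, which may be technical.

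The labels call the cells germ cells, and 7 listed genes carry the prefix germ, among them germvasa, germnanos3 and germdazl. A transcript of at least 1 of them was found in 63.8% ± 27.0 of cells per plate in wild type at 24 hpf (SD, n = 5) and in 42.8% ± 30.2 in the mutant (SD, n = 3). At 8 hpf the shares were 81.4% ± 15.6 and 67.6% ± 13.5 (SD, n = 4 each). Many cells at every stage thus showed no such transcript at this depth.

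One library stands apart. Over all 1017 genes, the library labelled mutant plate 1 at 8 hpf correlated at r = 0.805 with the other 8 hpf plates and at r = 0.850 with the 24 hpf plates, as a description. The other 5 plates of at least 10 cells at 8 hpf correlated at 0.897 to 0.941 and at 0.672 to 0.787. All 4 listed red blood cell genes (hbae1, hbae3, hbbe1.1 and hbbe3) were detected in it, with a sum of 5.35 transcripts per cell, and all 4 were at 0 in every wild-type plate at 8 hpf. Its 14 muscle markers, all detected, summed to 6.33 per cell, against 0.0952 to 1.0 in wild type at 8 hpf. The main results at 8 hpf in the mutant are also given without it.

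At 8 hpf most cells carried apoeb. The wild-type plate means were 1.76, 1.04, 3.17 and 0.880 transcripts per cell (1.71 ± 1.04, SD, n = 4). The highest came from a plate of 6 cells. In the mutant the plate means were 2.38, 1.72, 1.5 and 0.500 (1.52 ± 0.777, SD, n = 4), and the lowest came from a plate of 2 cells. Without mutant plate 1 the mutant mean was 1.24 ± 0.651 (SD, n = 3). The genotypes overlapped.

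Before and after 8 hpf apoeb was low. At 3.5 hpf the wild-type plates held 0.25, 0.167, 0.286, 0.0909 and 0.357 transcripts per cell (0.230 ± 0.104, SD, n = 5). The mutant plates held 0.216, 0.164, 0.109, 0.115 and 0.0625 (0.133 ± 0.0587, SD, n = 5). At both genotypes all 3.5 hpf plates lay below all 8 hpf plates.

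At 24 hpf apoeb differed widely between plates of 1 genotype. The wild-type plates held 0.488, 0.05, 0.193, 0.0571 and 0 transcripts per cell (0.158 ± 0.198, SD, n = 5). The mutant plates held 0.548, 0.741 and 0.05 (0.446 ± 0.356, SD, n = 3). Among the plates compared, wild-type plate 1 and mutant plates 1 and 2 were high. The others were low in both genotypes, and the genotypes overlapped. Outside the comparisons, the 40 wild-type 24 hpf cells of the plate of both 8 and 24 hpf held 0.500 transcripts per cell. Of these cells 37.5% had apoeb. The 11 transcripts of wild-type plate 3 lay in 2 cells, 1 of which held 8. At 2 wpf the plate mean was 0.0395.

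**Figure D1:**
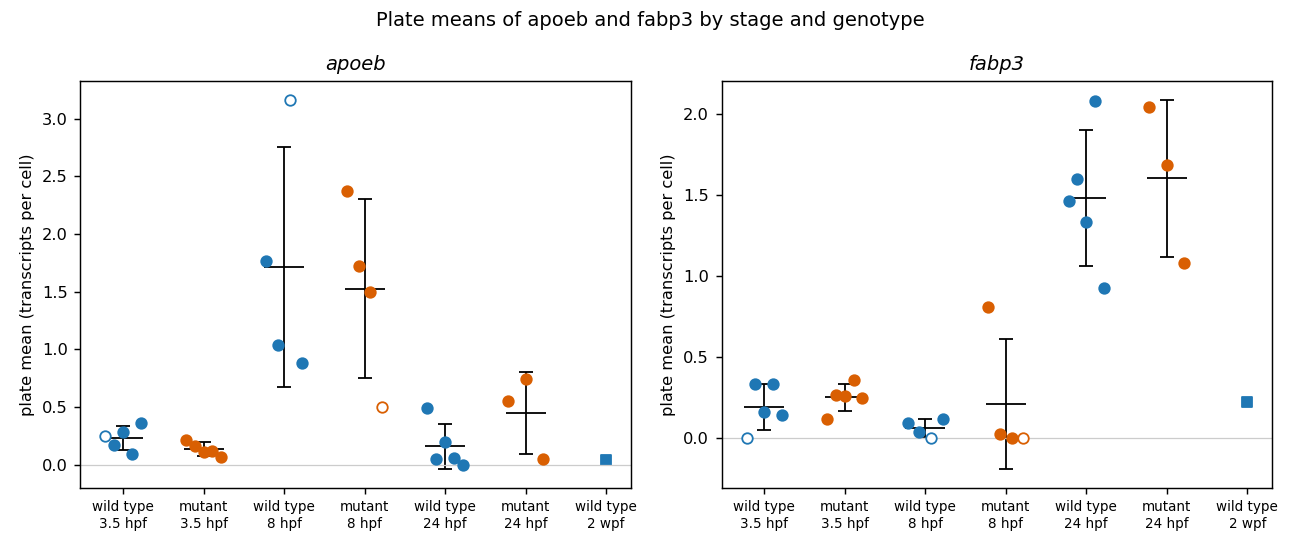
Mean transcripts per cell of apoeb (left) and fabp3 (right) in each plate, by stage and genotype. Each point is a plate, open where it held fewer than 10 cells, the bar is the mean with its SD over plates, and the square is the single 2 wpf plate. For apoeb the 8 hpf plates stand above those of 3.5 hpf, and for fabp3 every 24 hpf plate, from 0.930 upward, lies above every earlier one.

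The gene fabp3 had another course. At 24 hpf the wild-type plates held 1.46, 1.60, 1.33, 2.09 and 0.930 transcripts per cell (1.48 ± 0.420, SD, n = 5). The mutant plates held 2.05, 1.69 and 1.08 (1.61 ± 0.487, SD, n = 3). The genotypes overlapped, and no plate of either was without the transcript.

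At the earlier stages fabp3 was low. At 3.5 hpf it was at 0, 0.333, 0.163, 0.333 and 0.143 transcripts per cell in wild type (0.195 ± 0.141, SD, n = 5), the 0 coming from a plate of 4 cells. In the mutant it was at 0.122, 0.269, 0.261, 0.361 and 0.25 (0.252 ± 0.0854, SD, n = 5). These groups overlapped.

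At 8 hpf fabp3 was rare outside 1 library. The wild-type plates held 0.0952, 0.0408, 0 and 0.120 (0.0640 ± 0.0540, SD, n = 4). The mutant plates held 0.813, 0.0278, 0 and 0 (0.210 ± 0.402, SD, n = 4), so the mutant mean came almost wholly from plate 1, the library that stands apart. Without it the mutant mean was 0.0093 ± 0.016 (SD, n = 3). At 2 wpf the plate mean was 0.224.

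Ordered by plate means, apoeb stood at 1.71 (wild type, 8 hpf), 1.52 (mutant, 8 hpf), 0.446 (mutant, 24 hpf), 0.230 (wild type, 3.5 hpf), 0.158 (wild type, 24 hpf) and 0.133 (mutant, 3.5 hpf). Each neighbouring pair in that order overlapped in its plates, the mutant pair of 8 and 24 hpf only through the plate of 2 cells. For fabp3 the order was 1.61 (mutant, 24 hpf), 1.48 (wild type, 24 hpf), 0.252 (mutant, 3.5 hpf), 0.210 (mutant, 8 hpf), 0.195 (wild type, 3.5 hpf) and 0.0640 (wild type, 8 hpf). Only the step from 24 hpf to the rest had no overlap between neighbours.

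On the scale of log2(transcripts + 0.2), apoeb was higher at 8 than at 3.5 hpf by 2.04 (SE 0.40) in wild type and 2.24 (SE 0.40) in the mutant. From 8 to 24 hpf its difference was -2.42 (SE 0.40) and -1.48 (SE 0.46). Without mutant plate 1 at 8 hpf the mutant steps were 2.00 and -1.23. For fabp3 the later step was 2.66 (SE 0.37) in wild type and 2.5 (SE 0.42) in the mutant, or 3.07 without mutant plate 1 at 8 hpf. Its earlier step was -0.52 (SE 0.37) in both, and -1.09 in the mutant without that plate. These differences describe what the genes were chosen for and carry no p-value.

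Between genotypes the differences, mutant minus wild type, did not exceed their errors at 3.5 hpf. They were -0.35 (SE 0.38) for apoeb and 0.26 (SE 0.35) for fabp3. The fabp3 value was 0.04 without wild-type plate 1, the plate of 4 cells, and turned to -0.08 with plates weighted by cells. At 8 hpf the apoeb and fabp3 differences were -0.15 (SE 0.42) and 0.25 (SE 0.39). Without mutant plate 1 they were -0.39 and -0.31, so the fabp3 sign turned. With only plates of at least 10 cells kept, the apoeb value turned to 0.56. At 24 hpf apoeb stood at 0.80 (SE 0.44) and fabp3 at 0.10 (SE 0.40). With 1 plate of that stage left out, apoeb ran from 0.42 (without mutant plate 2) to 1.38 (without mutant plate 3). For fabp3 the range was -0.08 (without mutant plate 1) to 0.33 (without mutant plate 3), with the sign also turned without wild-type plate 5, at -0.03.

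At 24 hpf the plates with high apoeb also differed from the others in makeup. Cells with a germ-prefixed transcript made up 31.7%, 33.3% and 18.5% of the 3 compared plates with high apoeb, and 37.1% to 86.0% of the other compared plates. Epidermis markers, all 17 detected in both genotypes, summed to 7.90, 9.29 and 9.93 transcripts per cell in the 3 high plates and to 1.60 to 6.02 in the others. Their part in the apoeb difference between genotypes was not tested. In a plate mean fewer cells of a type and less RNA per cell cannot be told apart.

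Counted by cells, apoeb was detected in 17.9% ± 6.76 of cells per plate at 3.5 hpf in wild type and 11.6% ± 4.03 in the mutant (SD, n = 5 each). At 8 hpf the shares were 68.3% ± 16 and 70.6% ± 15.2 (SD, n = 4 each), the latter 65.7% ± 14.2 without mutant plate 1. At 24 hpf they were 8.70% ± 11.7 (SD, n = 5) and 26.4% ± 20.5 (SD, n = 3). At 2 wpf 3 of 76 cells had it, a share of 3.95% (exact 95% interval 0.822 to 11.1%, which covers counting error only).

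For fabp3 the shares were 17.1% ± 11.4 and 20.9% ± 6.63 at 3.5 hpf (wild type, then mutant). They were 6.40% ± 5.40 and 14.8% ± 27.7 at 8 hpf, the latter 0.926% ± 1.60 without mutant plate 1. At 24 hpf they were 51.7% ± 8.54 and 62.5% ± 9.46. At 2 wpf 15 of 76 cells had fabp3, a share of 19.7% (exact 95% interval 11.5 to 30.5%).

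Cells were deeper at later stages, with plate medians averaging 372 transcripts at 3.5 hpf and 536 at 24 hpf in wild type. With each cell thinned to 150 transcripts, the apoeb share in wild type was 8.18%, 38.0% and 3.42% at 3.5, 8 and 24 hpf. In the mutant it was 5.67%, 36.6% and 9.99%, with 32.8% at 8 hpf without mutant plate 1. The thinned fabp3 share was 7.44%, 2.47% and 26.2% in wild type and 9.85%, 5.17% and 28.7% in the mutant, or 0.242% at 8 hpf without mutant plate 1, so the order of stages was that of the full depth.

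The number of transcripts in a cell also varied. At 8 hpf 39 of 101 wild-type cells and 24 of 112 mutant cells had no apoeb, while 39 and 57 cells held at least 2 transcripts, up to 9 and 11. At 24 hpf fabp3 was absent from 96 of 196 wild-type cells and held by 18 others at 5 or more transcripts, up to 10. At 3.5 hpf neither gene passed 3 transcripts in any cell.

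Within plates at 24 hpf, fabp3 lay more in cells without germ-prefixed transcripts, with no test since the choice of genes used this split. Over the 8 plates, 46.1% ± 15.1 of cells with a germ-prefixed transcript and 73.2% ± 16.1 of cells without one held fabp3 (SD, n = 8). The share was lower in the germ-bearing cells in 6 of 8 plates. Median depth was 514 transcripts on the first side and 599 on the second. Thinned to 150 transcripts the difference of -27.2 percentage points, with minus without, was -14.4. Thinning lowers every share. The mean fabp3 share per plate at 24 hpf went from 51.7% to 26.2% in wild type and from 62.5% to 28.7% in the mutant. The part of depth in the split thus cannot be read from the smaller difference, and was not tested.

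Single plates differed in this split. In wild type the shares with and without germ-prefixed transcripts were 61.5% and 60.7% in plate 1, 47.1% and 66.7% in plate 2, 38.8% and 87.5% in plate 3, 23.1% and 81.8% in plate 4, and 26.5% and 100% in plate 5. In the mutant they were 57.1% and 64.3%, 60% and 75.0%, and 54.3% and 50%. Wild-type plates 2 to 5 had wider gaps than any mutant plate and wild-type plate 1 had almost none, so the genotypes overlapped. The sides without germ-prefixed transcripts held only 3 to 9 cells in wild-type plates 2, 3 and 5. Whether the gap differs between genotypes was not tested.

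For apoeb at 24 hpf the shares were 9.65% ± 14.2 with and 20.4% ± 18.5 without germ-prefixed transcripts (SD, n = 8). The germ-bearing side was lower in 6 plates, higher in 1 and equal in 1, where both were at 0. The widest gaps were in wild-type plate 1, at 7.69% against 39.3%, and in wild-type plate 3, at 0 of 49 against 2 of 8 cells, where a count of 0 allows a share of up to 6.12%. In mutant plate 2, where apoeb was highest, the shares were 40% and 43.2%.

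At 8 hpf no such split was seen for apoeb. It was detected in 72.9% ± 17.4 of germ-bearing cells and 66.3% ± 15.6 of the others (SD, n = 6), higher in 3 plates and lower in 2. Without mutant plate 1 the shares were 70.01% and 63.1%. Over other germ definitions and thinning, the difference of 6.59 points ran from -5.14 to 8.68. Pooled wild-type cells with 0, 1, 2 to 4 and 5 or more germ-prefixed transcripts held apoeb in 14 of 21, 13 of 13, 11 of 26 and 24 of 41. In the mutant the counts were 24 of 32, 15 of 18, 34 of 40 and 15 of 22, and neither genotype had a single order. For fabp3 the shares were 14.9% ± 21.7 and 10.9% ± 21.2, and 6.25% and 2.5% without mutant plate 1. In that library 18 of 31 germ-bearing cells and 9 of 17 others held fabp3.

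**Figure D2:**
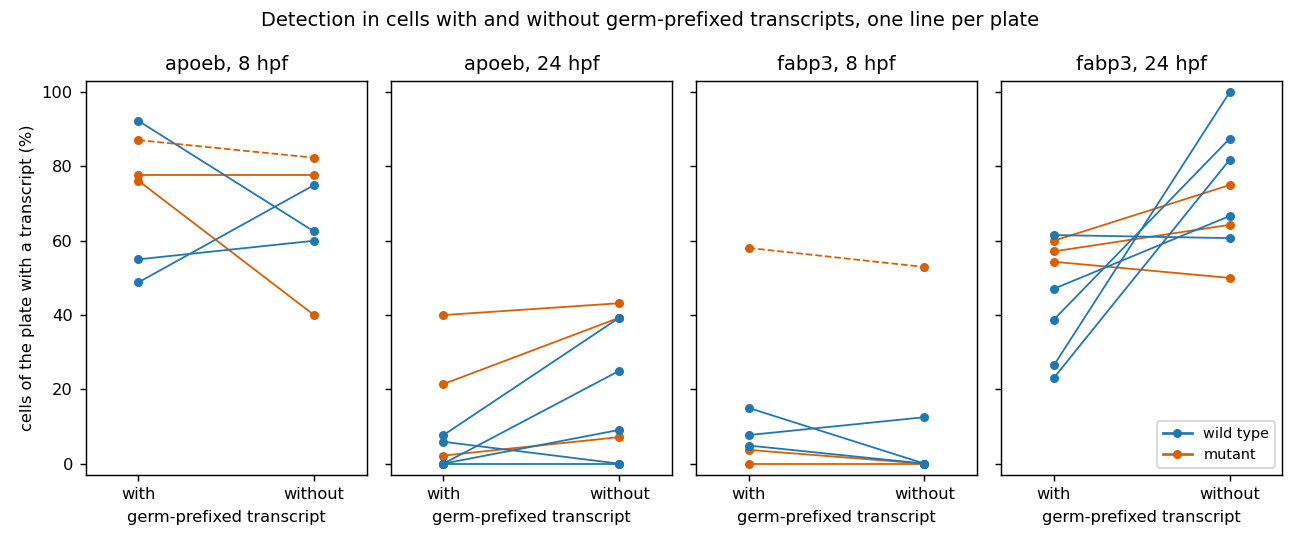
Share of cells in which apoeb or fabp3 was detected, in cells with and without a germ-prefixed transcript, at 8 and 24 hpf. Each line is a plate with at least 3 cells on each side, and the dashed line is mutant plate 1 at 8 hpf. At 24 hpf 6 of 8 lines rise to the right for each gene, and at 8 hpf the apoeb lines go both ways.

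Graded by the number of germ-prefixed transcripts, pooled wild-type cells at 24 hpf held both genes less often in the higher classes. With cells pooled over plates, apoeb was found in 15 of 70 cells with none, in 1 of 23 with 1, in 1 of 31 with 2 to 4 and in 0 of 72 with 5 or more, a count that allows up to 4.17%. The fabp3 shares were 75.7%, 65.2%, 45.2% and 25.0% (exact 95% intervals 64.0 to 85.2%, 42.7 to 83.6%, 27.3 to 64.0% and 15.5 to 36.6%). The plates fill these classes unevenly. Wild-type plate 1, with high apoeb, gave 28 of the 70 cells and 11 of the 15 with apoeb in the first class, and 3 of the 72 cells in the last. Without it, a comparison added after the data were seen, apoeb was in 4 of 42, 1 of 18, 0 of 26 and 0 of 69 cells, and fabp3 in 85.7%, 66.7%, 42.3% and 23.2%.

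In the mutant the pooled apoeb counts were 31 of 86, 3 of 15, 3 of 24 and 2 of 31 cells, but the outer classes come from different plates. In mutant plate 1 they held apoeb in 11 of 28 and 0 of 4 cells, in plate 2 in 19 of 44 and 1 of 2, and in plate 3, which gave most of the last class, in 1 of 14 and 1 of 25. Within plates no trend can be read from such counts. Its fabp3 shares had no single order, at 67.4%, 46.7%, 66.7% and 51.6%. At 3.5 hpf the wild-type fabp3 share went the other way, from 20.0% of 80 cells with none to 36.4% of 11 cells with 5 or more, with intervals that overlap. Pooled cells share plates and are not replicates of a condition.

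**Figure D3:**
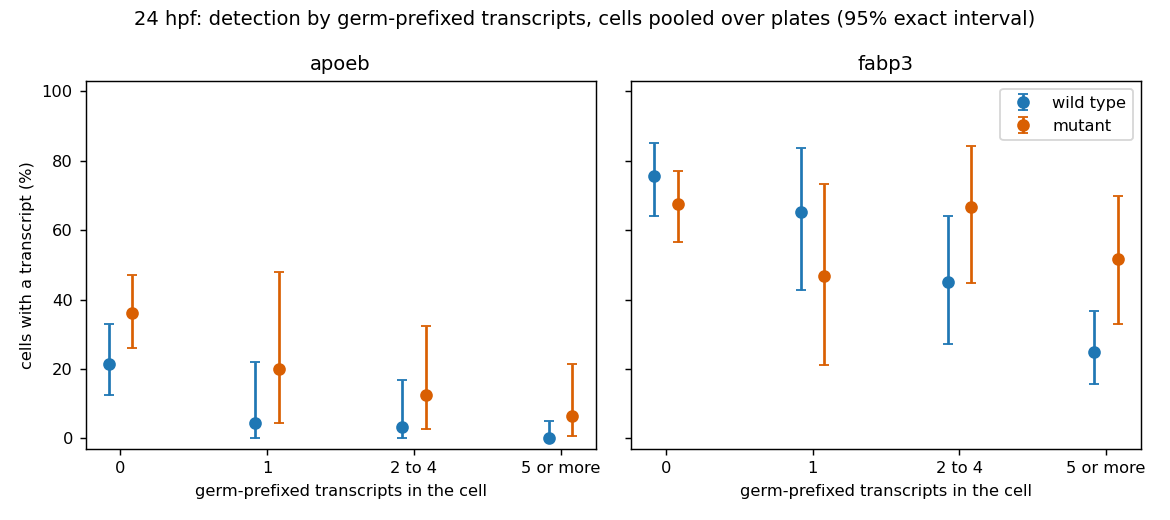
Share of 24 hpf cells in which apoeb (left) or fabp3 (right) was detected, by the number of germ-prefixed transcripts in the cell, with cells pooled over plates. Points are shares and bars exact 95% intervals for counting error. In wild type fabp3 goes from 75.7% to 25.0%, and apoeb reaches 0 of 72 cells, in classes that the plates fill unevenly.

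Which other cells held the transcripts at 24 hpf was asked with marker lists, a measure the choice of genes did not use directly. Germ-bearing cells stayed in these comparisons, so the tests are not free of the germ split that the choice used. The part of that split in them was not tested. A cell counted as marker-bearing with at least 2 different markers of a class. Of the 9 tests made over both genes, 4 classes and the joint detection of the pair, none passed an adjusted p of 0.05 (exact two-sided sign-flip permutation test over plates, Benjamini-Hochberg). By this design no result could pass alone. The smallest p that 8 plates allow, 0.00781 by this permutation test, becomes an adjusted p of 0.0703 over 9 tests. That none passed is therefore no result about the classes. Red blood cell, macrophage and heart markers were met in too few plates or not listed, so those classes could not be tested.

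In cells with neural markers fabp3 was found more often in every plate. The shares were 61.8% ± 11.6 with and 35.1% ± 15.8 without neural markers (SD, n = 8 plates), and the differences in single plates ran from 2.5 to 67.4 percentage points. The mean difference of 26.7 points gave an exact p of 0.00781, the smallest that 8 plates allow, and an adjusted p of 0.0703. The neural list, 10 genes with members such as elavl3, tuba1c, tubb5 and sox3, was met by 271 cells and not by 81. Median depth was 562 transcripts in those cells against 499 in the others. Beyond the thinning given below, the part of depth in the result was not tested. In wild type at 8 hpf 8 of the 10 genes were detected, elavl3 and neurog1 being absent. There 61.2% to 83.3% of cells per plate met the list. Meeting it thus does not by itself mark a cell as neural, and whether the 271 cells were neural was not tested. Thinned to 150 transcripts, which lowers every share, the difference was 16.3 points (exact permutation, adjusted p 0.141). The part of depth cannot be read from that smaller difference.

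For apoeb the widest gap was in cells with connective tissue and notochord markers, mostly collagens. The shares were 33.6% ± 17.8 with and 10.1% ± 12.7 without (SD, n = 7 plates), higher in 6 plates and equal, at 0, in the other. The difference of 23.5 points had an exact p of 0.0313 and an adjusted p of 0.141. The marker-bearing side held as few as 3 cells in a plate, with median depths of 582 and 535.

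In cells with epidermis markers, chiefly keratins, apoeb was found in 18.7% ± 20.5 against 5.83% ± 7.69 of the others (SD, n = 8, exact p 0.0625, adjusted p 0.176). In mutant plate 2 all 23 cells with apoeb were epidermis marker-bearing cells, of which there were 42, and the 12 other cells had none. In that plate 44 cells met the skeletal muscle list, among them 20 of those 23 cells. In wild-type plate 1 the epidermis list was met by 32 of 41 cells and the muscle list by 37. In wild type at 8 hpf 12.2% to 81.0% of cells per plate met the epidermis list. Meeting a list thus does not by itself mark the type of a cell. Whether the cells with apoeb at 24 hpf were epidermal was not tested. With neural markers apoeb was at 13.8% against 19.9% (exact p 0.0781, adjusted p 0.176). Skeletal muscle markers gave differences of 6.63 points for apoeb (exact p 0.281) and 3.55 points for fabp3 (exact p 0.703), each with 7 plates. For fabp3 the differences were 9.72 points with epidermis markers (exact p 0.328) and 8.92 with connective tissue and notochord markers (exact p 0.516).

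**Figure D4:**
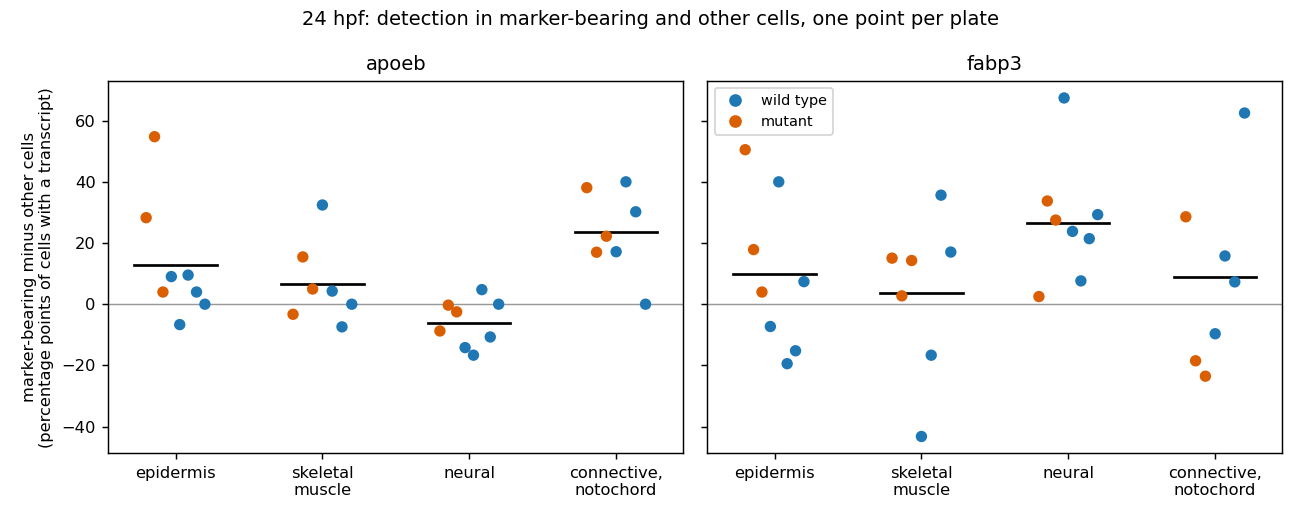
Difference in the share of 24 hpf cells with apoeb (left) or fabp3 (right) between marker-bearing and other cells of a plate, in percentage points. Each point is a plate and the bar is the mean over plates. The neural points for fabp3 all lie above 0, and those of connective tissue and notochord for apoeb lie at or above 0.

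Whether the 2 genes keep company in cells could not be decided, since only 3 plates could be used and they went both ways. In the 3 plates with enough apoeb cells at 24 hpf, fabp3 was found in 69.5% ± 25.9 of cells with apoeb and 62.1% ± 13.6 of cells without (SD, n = 3). It was at 92.9% against 46.4% in mutant plate 1, 73.9% against 71.0% in mutant plate 2 and 41.7% against 69.0% in wild-type plate 1. The exact p was 0.75, with 0.25 the smallest that 3 plates allow. Over the 23 plates of at least 10 cells their log2 plate means had r = -0.368, as a description over plates that share stage and depth.

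Of other lipid genes, 12 from the transport, binding and metabolism lists are in the table, and 11 had enough signal to be tested. In the mutant against wild type, 0 of 11 passed limma with Benjamini-Hochberg adjustment at 3.5 hpf, at 8 hpf and at 24 hpf, where 0.22%, 0% and 0.11% of all 910 genes tested did. None of the 11 had an unadjusted p under 0.05 in any of these 3 comparisons, and voom also called 0. The median log2 difference of the 11 was 0.10, 0.24 and 0.22, against -0.02, -0.0024 and 0 over all genes. Without mutant plate 1, where 10 passed the filter, the 8 hpf median was -0.04 (all genes -0.08), so its sign turned.

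From 3.5 to 8 hpf 4 of 11 passed in wild type, 2 higher and 2 lower, where 34.7% of all genes tested passed (11.6% higher and 23.1% lower). In the mutant 5 of 11 passed, 2 higher and 3 lower, where 31.9% did (11.8% higher and 20.1% lower). The counts are unsteady and no result about the lists is read from them. In wild type the count was 2 without any 1 of plates 3, 4 and 5 at 3.5 hpf or plate 1 at 8 hpf. In the mutant it was 4 without mutant plate 1 at 8 hpf, 3 without plate 3 or plate 4 at 3.5 hpf, and 8 with plates weighted by cells. The list medians were 0.18 and 0.37, against -0.02 and 0.01 over all genes, and the mutant median was -0.21 without mutant plate 1 at 8 hpf (all genes -0.14).

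The gene apoc1l encodes an apolipoprotein of the C-I type, and in the GRCz12tu gene order of RefSeq it is the next gene after apoeb, with apoa2 close by. Its plate means in wild type at 8 hpf were 0.952, 0.347, 0.167 and 0.240 transcripts per cell, and at 3.5 hpf 0, 0.0139, 0.0204, 0.0152 and 0, with no overlap. In the mutant they were 2.04, 0.472, 0.462 and 0 at 8 hpf and 0.230, 0.0299, 0, 0 and 0 at 3.5 hpf, overlapping only through the 8 hpf plate of 2 cells. It rose by 1.43 (SE 0.53, limma adjusted p 0.0385) in wild type and 1.48 (SE 0.53, adjusted p 0.0336) in the mutant on the log2 scale. Both calls were lost when any of several single plates was left out, with the mutant value at 0.90 (adjusted p 0.171) without mutant plate 1 and the wild-type value at 1.09 (adjusted p 0.163) without wild-type plate 1, both at 8 hpf.

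Within plates, cells with and without apoc1l were set side by side. At 8 hpf cells with apoc1l held a mean of 1.89 ± 0.437 apoeb transcripts against 1.54 ± 0.840 in the others (SD, n = 6 plates), higher in 4 plates. By share of cells with apoeb the plates went both ways. That share was lower with apoc1l in mutant plate 1 (82.9% against 100%), mutant plate 2 (75.0% against 79.2%) and wild-type plate 1 (72.7% against 90.0%). It was higher in mutant plate 3 and wild-type plates 2 and 4. At 24 hpf the means were 0.696 ± 0.502 and 0.325 ± 0.232 (SD, n = 4), higher in 3. At 3.5 hpf apoc1l was met in quantity in mutant plate 1 alone, where 9 of its 13 apoc1l cells and 4 of the other 61 held apoeb. Those 13 cells had a median of 330 transcripts and the others 329, and a germ-prefixed transcript was found in 23.1% and 62.3%. This comparison was chosen after the values were seen and has no test.

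The cholesterol exporter gene abca1b rose from 3.5 to 8 hpf. In wild type it was at 0 in all 205 cells at 3.5 hpf, and at 0.429, 0.184, 1.0 and 0.0800 transcripts per cell at 8 hpf. Pooled over cells the 8 hpf level was 17.6-fold above a floor of 3 transcripts over the 3.5 hpf group. That figure does not take in plate-to-plate spread. The limma difference was 1.42 (SE 0.31, adjusted p 0.000574), and in the mutant, where plates rose from at most 0.0135 to between 0.0769 and 0.500, it was 1.3 (SE 0.31, adjusted p 0.00142), or 1.28 (adjusted p 0.00409) without mutant plate 1 at 8 hpf.

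The gene npc2, whose product hands cholesterol out of lysosomes, fell over the same step. Wild-type plates held 0.500 to 1.0 transcripts per cell at 3.5 hpf and 0 to 0.0816 at 8 hpf, and mutant plates 0.487 to 0.951 and 0 to 0.231. The log2 change was -1.89 (SE 0.25, limma adjusted p 4.46e-07) in wild type and -1.41 (SE 0.25, adjusted p 3.66e-05) in the mutant, where it was -1.50 without mutant plate 1 at 8 hpf (adjusted p 6.1e-05). The genotypes overlapped at each stage.

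Among genes of fatty acid metabolism, acadm, a dehydrogenase of medium-chain fatty acid oxidation, fell by 0.79 (SE 0.28, limma adjusted p 0.0283) in wild type and by 0.85 (SE 0.28, adjusted p 0.0202) in the mutant. Its plates overlapped. With 1 plate left out, the limma adjusted p reached 0.0866 in wild type and 0.0599 in the mutant, so both calls were unsteady. The fatty acid elongase gene elovl7a fell by 0.78 in the mutant (SE 0.21, adjusted p 0.00401) and was at -0.49 in wild type (SE 0.21, adjusted p 0.0669). Without mutant plate 1 at 8 hpf the mutant values were -0.84 for acadm (limma adjusted p 0.0394) and -0.85 for elovl7a (adjusted p 0.00409). The elongase genes elovl5 and elovl1b did not pass, at 0.20 and -0.18 in wild type.

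The remaining apolipoprotein genes, apoa1a, apoa1b and apoa2 of high-density lipoproteins, apobb of yolk and low-density lipoproteins and apoa4, did not pass in any comparison, apoa4 being below the filter. All 5 were at 0 in every wild-type plate at 3.5 hpf. In the mutant at 3.5 hpf apoa1a and apoa1b were met in plates 1, 2 and 3, each at up to 0.135 transcripts per cell. There apoa2 reached 0.0676 and apobb 0.0299, and apoa4 was at 0. For all 5 genes the highest plate was mutant plate 1 at 8 hpf, with 2.65, 1.15, 1.52, 1.56 and 0.542 transcripts per cell, where the other 8 hpf plates reached at most 0.167. Among the 24 hpf plates compared, apoa1a was highest in mutant plate 2, at 0.444, and in wild-type plate 1, at 0.268, plates that were also high in apoeb and apoc1l.

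From 8 to 24 hpf 0 of 11 passed limma in either genotype, where 31% of genes tested in wild type (24.1% higher and 6.92% lower) and 18.6% in the mutant (15.9% higher and 2.64% lower) did. One of them, abca1b, had an unadjusted p under 0.05 in wild type (-0.67, SE 0.31), and 0 did in the mutant. Voom called 1 in each genotype, apoc1l lower in wild type (adjusted p 0.0174) and npc2 lower in the mutant (adjusted p 0.00592). Left without wild-type plate 1 at 24 hpf, apoc1l and abca1b passed as lower in wild type (adjusted p 0.0307 and 0.0191), so the count of 2 against 0 turned on that plate. Among the plates compared, those with high apoeb at 24 hpf were the ones with high apoc1l.

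**Figure D5:**
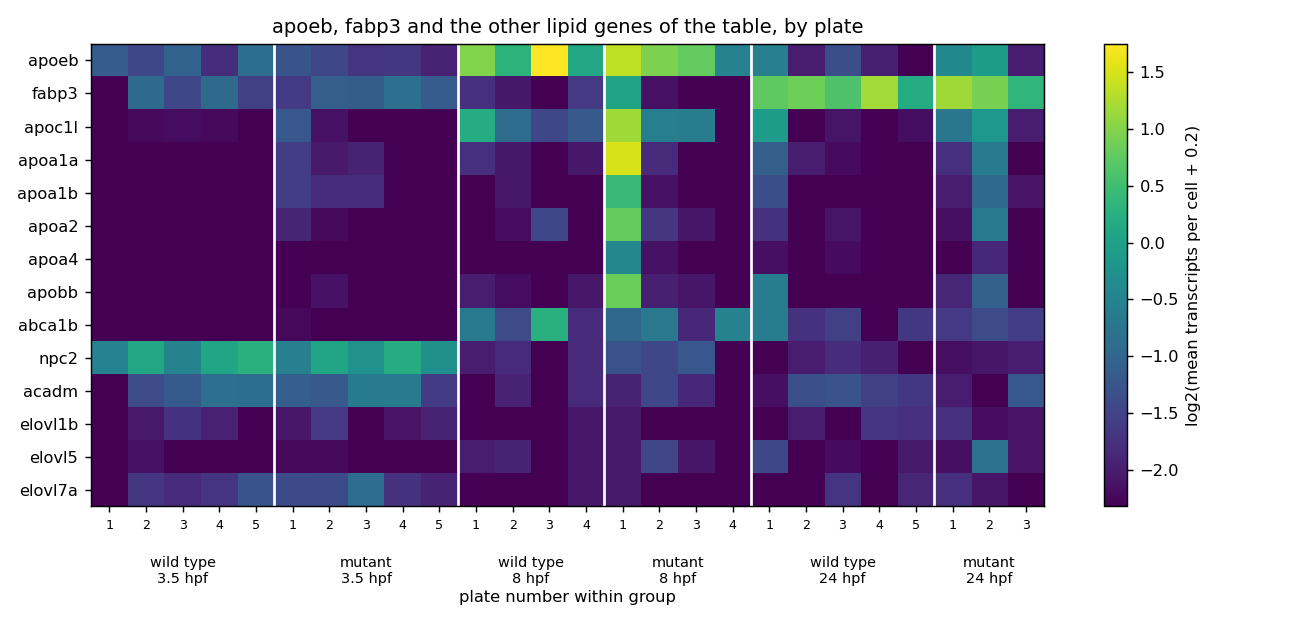
Plate means of apoeb, fabp3 and the 12 other lipid genes of the table, as log2(transcripts per cell + 0.2), with plates in columns ordered by stage and genotype. Lighter is higher. The apoeb band is bright at 8 hpf and fabp3 at 24 hpf, npc2 is bright at 3.5 hpf alone, and mutant plate 1 at 8 hpf is bright for apoc1l, apoa1a, apoa1b, apoa2 and apobb.

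The genes whose plate means went most like apoeb were sought over the 23 plates of at least 10 cells, as a description in which plates share stage and depth. They were smarca4, a chromatin remodelling ATPase (r = 0.928), apoc1l (0.874), akap12b, a scaffold protein (0.868), tbx16 and msgn1, transcription factors of early mesoderm (0.864 and 0.862), and nop56, a nucleolar protein (0.856). In wild type tbx16 had 0.616 ± 0.187 transcripts per cell at 8 hpf (SD, n = 4) and 0 in all 5 plates at 24 hpf. The same pattern held for smarca4 less sharply, at 0.780 ± 0.240 and 0.310 ± 0.185.

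For fabp3 the most alike were rpl19 and rpl18 (both 0.907), h3f3b.1, a histone H3 gene (0.898), rps20 (0.898), rps9 (0.894) and rpl11 (0.893). In wild type rpl19 was at 0.404 ± 0.257 at 8 hpf and 1.98 ± 0.447 at 24 hpf (SD, n = 4 and 5). Whether reads of these genes also matched other gene copies was not examined, so single values are uncertain.

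Within 24 hpf plates, cells with apoeb differed most from cells without it in krt4, an epidermal keratin, at 1.88 ± 0.825 on the log2 scale of deposited values (SD, n = 3 plates). The muscle gene ttna followed at 1.39, apoc1l at 1.17 and the collagen gene col11a1a at 1.11, with 2 clone-named genes among the top 6. Each was higher in all 3 plates. Plate medians of depth averaged 577 transcripts in cells with apoeb and 582 in cells without.

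Cells with fabp3 differed most in ptmab, a prothymosin gene (2.07 ± 1.16, SD, n = 8 plates), hmgn2, a nucleosome-binding protein gene (1.47), rps6 (1.39), rpl4 (1.38) and pcna, a replication clamp gene (1.35). A clone-named gene completed the 6. All were higher in 8 of 8 plates except pcna, which was higher in 7. Cells were not matched for depth here, and the part of depth in these differences was not tested. The largest negative differences were for germnanos3 (-1.22) and germvasa (-0.97), which the choice of genes had used.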

How the data were processed

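The deposited table holds 1 signal value per gene and cell, in which every entry is a whole number plus 0.1. Per the submitters' processing notes BWA and the zebrafish build Zv9 were used, and whether the values count molecules or reads is not given in the sources used here. After subtraction of 0.1 the values are called transcripts, and 77.9% of entries are 0. Cells summed to 156 to 855 transcripts over the 1017 listed genes, which limits what a single cell can show. Samples were grouped by stage and genotype from their labels, and 169 cells were left out of the comparisons. One column is numbered 151, beyond the 96 barcodes, and was kept.

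Plate means were compared on log2(deposited mean + 0.1), which understates the change of low genes, with limma 3.58.1 in R 4.3.3 (trend and robust variance, 6 groups in 1 fit, 20 residual degrees of freedom, 7 comparisons). The 910 genes whose deposited mean reached 0.2 in 3 or more plates were tested with Benjamini-Hochberg adjustment at 0.05, and 107 were left out. Shares of cells were compared within plates with at least 3 cells on each side, and marker classes by an exact sign-flip permutation test over plates. Thinned shares are the expectation for 150 transcripts per cell. The fit and tests were tested on simulated data. Python 3.11.15, numpy 2.4.6, pandas 2.3.3, scipy 1.17.1 and matplotlib 3.10.9 were used.

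Genes named for likeness are the 6 with the highest correlation or cell difference. Members and gene lists were chosen with earlier results of these data known. Of 49, 33 and 104 names in the lists for lipid transport, binding and metabolism, 8, 0 and 4 were listed. Alternatives were another pseudocount, no filter, rescaling, weights by cells, voom, other marker and germ thresholds, thinning, a replicate block and each plate left out.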

Additional observations from a re-analysis of the deposited data

Results flagged for a closer look

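In 24 of 80 groups of plates 1 plate lay far from the others by Dixon's criterion, given here as a description. The rate of about 1 group in 20 that chance gives does not apply: in 10 of the 24 every other plate was at 0, so few transcripts sufficed, and the apoeb and fabp3 values are among those the genes were chosen by. Mutant plate 1 at 8 hpf gave most of the large values. There fabp3 was at 0.813 transcripts per cell and in 56.3% of cells, apoa1a at 2.65, apoa1b at 1.15, apoa2 at 1.52, apoa4 at 0.542 and apobb at 1.56. The elongase genes elovl1b and elovl7a were marked there at only 0.0417 each. Each rested on 2 transcripts, with every other mutant plate at 8 hpf at 0. Red blood cell and muscle markers were also high in that library, and their part in these values was not tested.

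Wild-type plate 1 at 24 hpf stood out with apoeb in 29.3% of cells, apoc1l at 0.756 transcripts per cell, apobb at 0.463, apoa1a at 0.268, apoa1b at 0.195 and elovl5 at 0.171. Its share of germ-bearing cells, 31.7%, was the lowest of the wild-type plates at that stage.

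Mutant plate 1 at 3.5 hpf stood out for apoc1l at 0.230, apoa2 at 0.0676 and abca1b at 0.0135, and mutant plate 2 for apobb at 0.0299. In wild type the values were elovl5 at 0.0278 in plate 2 at 3.5 hpf, and at 8 hpf apoa1b at 0.0408 in plate 2, apoa2 at 0.167 in plate 3, and elovl1b and elovl7a at 0.0400 in plate 4. Such values rest on few transcripts.

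Cells outside the comparisons also held the genes. The heterozygous barcodes of mutant plate 1 at 8 hpf had 1.02 fabp3 transcripts per cell, where the wild-type plates reached 0.120. The mutant barcodes of the same library had 0.813. Red blood cell markers summed to 5.73 per cell in the heterozygous and 5.35 in the mutant barcodes. Muscle markers summed to 7.21 and 6.33, and apoa1a was at 3.17 and 2.65. Both sets of barcodes thus shared the traits that set this library apart. The cause was not tested. The 5 cells of 8 hpf in the mixed plate had 3.40 apoeb and 0.2 fabp3 transcripts per cell, and its 24 hpf cells had 0.500 apoeb. At 2 wpf fabp3 was in 19.7% of cells.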

How the results depend on the processing

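With 1 added in place of 0.1, the apoeb steps shrank to 1.02 and -1.11 in wild type and 1.04 and -0.74 in the mutant, and the later fabp3 step to 1.14 and 1.07. The apoeb genotype difference at 8 hpf was 0.57 with plates weighted by cells and 0.56 without plates of fewer than 10 cells. Lipid genes called from 3.5 to 8 hpf in the mutant numbered 8 with weights. From 8 to 24 hpf voom called 1 in wild type, and 1 (npc2) was called in the mutant with weights, without small plates and by voom. With single plates left out the counts ran from 2 to 4 and from 0 to 2 in wild type (earlier and later step), and from 3 to 6 and from 0 to 1 in the mutant. The count of 0 in wild type became 1 without plate 4 at 8 hpf and 2 without plate 1 at 24 hpf, and in the mutant 1 without plate 4 at 8 hpf.

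The fabp3 germ split at 8 hpf was 12.9 points with at least 3 germ-prefixed transcripts required. The sign of the apoeb germ split at 8 hpf turned, with values from -5.14 to 8.68 over other germ definitions and thinning. Signs also turned for fabp3 in cells with epidermis markers with 1 required (-3.43) and apoeb in cells with neural markers with 3 required (0.674). So did that of fabp3 in apoeb cells as mean transcripts (-0.178) or thinned (-1.18). With single plates left out, the last ran from -12.2 to 24.7. In the same way fabp3 ran from -1.80 to 11.3 in cells with muscle markers. In cells with connective tissue and notochord markers it ran from -0.00919 to 14.3. The cause was not tested.

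Same-numbered plates of different groups had a median correlation of 0.0308 (-0.407 to 0.317), and other-numbered plates one of -0.00404 (-0.573 to 0.607). Above 0.1 lay 16 of 58 same-numbered pairs and 34 of 222 others. Whether the numbers pair the plates cannot be told from these values, and the main fit did not pair them. With a replicate block the lipid counts stayed at 4, 5, 0 and 0 while the apoeb difference at 24 hpf was 0.55. Depth per cell limits every share of detecting cells.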

Other observations

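Within 8 hpf plates, cells with apoeb differed most from the others in cirbp, an RNA-binding protein gene (1.07 ± 0.951 on the log2 scale of deposited values, SD, n = 6 plates). Next came h3f3d (1.05 ± 1.09), CCNA2 (0.99), rpl36 (0.98), ran (0.95) and cx43.4 (0.95). Each was higher in 5 of the 6 plates. Cells were not matched for depth, and the part of depth in these differences was not tested. Without mutant plate 1 the first 6 were ran (1.21, n = 5 plates), cx43.4, h3f3d, rps26l, pnrc2 and seta. There ran and cx43.4 were higher in all 5 plates, and cirbp, CCNA2 and rpl36 were no longer among the 6. The gene named first thus depended on that library. All these genes were named after their values were seen.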
